A study of Mus musculus with 6 samples.

Results

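The mitochondrial ribosomal protein genes were followed in total RNA of mouse brain synaptosomes on 6 one-colour Agilent microarrays, 1 array per sample. They were chosen by name: every probe whose gene name in the scanner files was Mrpl or Mrps with a number, together with Aurkaip1, Dap3 and Chchd1, which encode small-subunit proteins with names of their own. The array held 111 such probes for 79 genes. Of these, 109 probes, covering all 79 genes, were well above background on at least 3 arrays, out of 29318 kept probes and 20996 genes in all. Each gene was read from its brightest kept probe, and these 79 probes were well above background on all 6 arrays. By name, 47 genes belong to the large subunit and 32 to the small one.

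Synaptosomes are pinched-off nerve endings, with attached postsynaptic membrane, prepared from homogenised brain. The study compared 3 knock-in (KI) samples with 3 wild-type (WT) samples, and its title is about FMR1 transcript regulation by microRNAs and a tremor and ataxia syndrome of FMR1 repeat carriers. The labels do not name the knock-in allele and give neither strain, age nor sex, and for the KI samples 1 field reads knock-out where the names and the design text read knock-in. Fmr1 itself read 2.08, 2.24 and 2.27 in KI and 1.42, 1.33 and 1.37 in WT (log2 relative to the 75th percentile of the array), all KI arrays above all WT arrays, a difference of 0.82 (SE 0.099, adjusted p = 0.198 by limma). Its RNA was thus measured in every KI sample, though a probe outside an altered stretch would not show the alteration. Separate animals are not stated either, so the p-values rest on a spread between samples that may be technical.

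Mitochondria keep a ribosome of their own, which translates the few proteins encoded in mitochondrial DNA, all of them subunits of the respiratory chain and ATP synthase. Its RNA comes from mitochondrial DNA, whereas its proteins are encoded in the nucleus, made in the cytosol and imported. Many of its proteins have bacterial relatives, and many others are found in mitochondria only. The small subunit reads the messenger RNA and the large subunit joins the amino acids. Nerve endings hold many mitochondria, which supply the ATP and calcium buffering that transmission needs.

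Slide 1 held 4 of the arrays, KI replicates 1 to 3 and WT replicate 3, and slide 2 held WT replicates 1 and 2, so slide and genotype overlap in part. The processed signal at the 75th percentile lay between 822.6 and 910 on slide 1 and was 578.4 and 580.2 on slide 2, and 52.9% to 55.7% of spots exceeded background clearly, with 0 saturated. The RNA integrity number was 10 throughout, and the labelled RNA input was 0.2 µg except for KI replicate 1, given as 0.0 µg. Markers of neurons and synapses were measured for 10 of 10 genes, with a summed signal of 560 to 658 times the 75th percentile in KI and 576 to 727 in WT. Markers of striatal medium spiny neurons (11 of 13 measured) summed to 316, 124 and 57.8 in KI replicates 1 to 3 and to 224, 51.1 and 53.6 in WT replicates 1 to 3, which overlap but vary strongly between samples, and 11 of 11 averaged higher in KI (median log2 difference 0.77). All 8 astrocyte, 8 oligodendrocyte, 9 microglial and 8 vascular markers were measured too, so the preparation held RNA of other cell types. The oligodendrocyte markers averaged higher in KI in 8 of 8 (median 0.26), with summed signals of 202 to 274 in KI and 171 to 244 in WT. Of the 6 markers of liver, muscle and blood 3 were measured, with sums of 74.9 to 132 in KI and 60.6 to 72.3 in WT, which do not overlap. These sums are almost wholly globin, from Hba-a1 and Hbb-b1. The muscle marker Myh1 was dim, at a mean log2 of -3.52 in KI and -3.36 in WT. Alb, Apoa1 and Ckm were on the array but were not kept. Hba-a1, an alpha globin, differed by 0.61 (SE 0.21). The part of these cell types in the results that follow was not tested. In such bulk RNA, fewer cells of a type and less RNA per cell cannot be told apart.

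Promoters of some members are shown first, since letters of known regulators occur there more often than in promoters at large, though most members lack each of them. RefSeq promoters (GRCm38.p6, 250 bases before to 50 after the start) were matched by symbol for 68 of the 79 genes and gave 74 promoters. Those of Aurkaip1, Dap3, Mrpl4, Mrpl13, Mrpl15, Mrpl19, Mrpl38, Mrpl54, Mrps28, Mrps34 and Mrps35 were not matched. Both strands were searched for letters at the core of the motifs of NRF1 and of the ETS factors, activators of nuclear genes for mitochondrial proteins, of YY1, and of the TATA box. The NRF1 letters GCATGCGC stood in 10.8% of the members' promoters against 2.71% of all 32851 promoters, the ETS letters CCGGAAGT in 16.2% against 3.89%, and the YY1 letters AAGATGGC in 16.2% against 2.75%. TATAAA stood in 6.76% against 13.6%. A match describes letters only, and binding was not measured. The following windows of 30 bases, 5′ to 3′ on the strand of the gene, show the matched letters in capitals for 4 members that read lower in KI and 1 that read higher.
Mrpl39, NRF1 letters, chr16:84735349-84735378, minus strand: aggagaggcgcGCATGCGCccccgcgtggc
Mrpl32, NRF1 letters, chr13:14613104-14613133, minus strand: ttgacccttgcGCATGCGCaagaggggcct
Mrpl3, ETS letters, chr9:105053238-105053267, plus strand: tgagaaacggaCCGGAAGTggcccggctgt
Mrps18c, ETS letters on the other strand, chr5:100798591-100798620, plus strand: cgggtcacgtgACTTCCGGcccgggaagcg
Mrpl36, YY1 letters on the other strand, chr13:73330968-73330997, plus strand: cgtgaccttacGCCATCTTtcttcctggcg

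Mrpl39 held its NRF1 letters on both strands, overlapping, and Mrpl32 held 4 matches in 1 promoter, among them a like overlapping pair. Mrpl39, Mrpl3, Mrps18c and Mrpl36 read lower in KI and Mrpl32 read higher, as given with their values below. Genes with the NRF1 letters (8) had a median log2 difference of -0.078 and those without (60) of -0.082. For the ETS letters the medians were -0.094 with (12 genes) and -0.073 without, and for the YY1 letters -0.035 with (12 genes) and -0.095 without.

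The comparison of KI with WT asks which synaptosomal transcripts differ with the genotype. The mitochondrial ribosomal protein genes lay close to the shift of all genes, and on the brightest probes 1 gene, Aurkaip1, stood apart from the rest. The median log2 difference, KI minus WT, was -0.078 over the 79 genes, against -0.053 over all 20996 genes. This order depended on the processing: with normexp background correction the members were at -0.065 and all genes at -0.080, and without the filter on dim probes at -0.078 and -0.13. A negative difference was found for 57 of the 79, or 72.2%, against 59.1% of all genes, and a positive one for 22, where 40.9% of all genes had one. These counts are for the brightest probe of each gene. Among the members' other kept probes, more read higher in KI than lower. The same share for the dimmer probes of all genes was not computed. In 17 members (21.5%) every KI array lay below every WT array, against 12.4% of all genes, and in 2 members (2.53%) every KI array lay above, against 7.86%. By limma's test with Benjamini-Hochberg adjustment over all genes, 0 of 79 members passed 0.05, against 0.00953% of all genes. At an unadjusted p under 0.05 there was 1 member, lower in KI, while 6.4% of all genes were lower and 4.46% higher at that level. Standard errors of the members' differences lay between 0.088 and 0.22 with a median of 0.11, and 63 of the 79 differences were smaller than 0.2 in size.

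**Figure D1:**
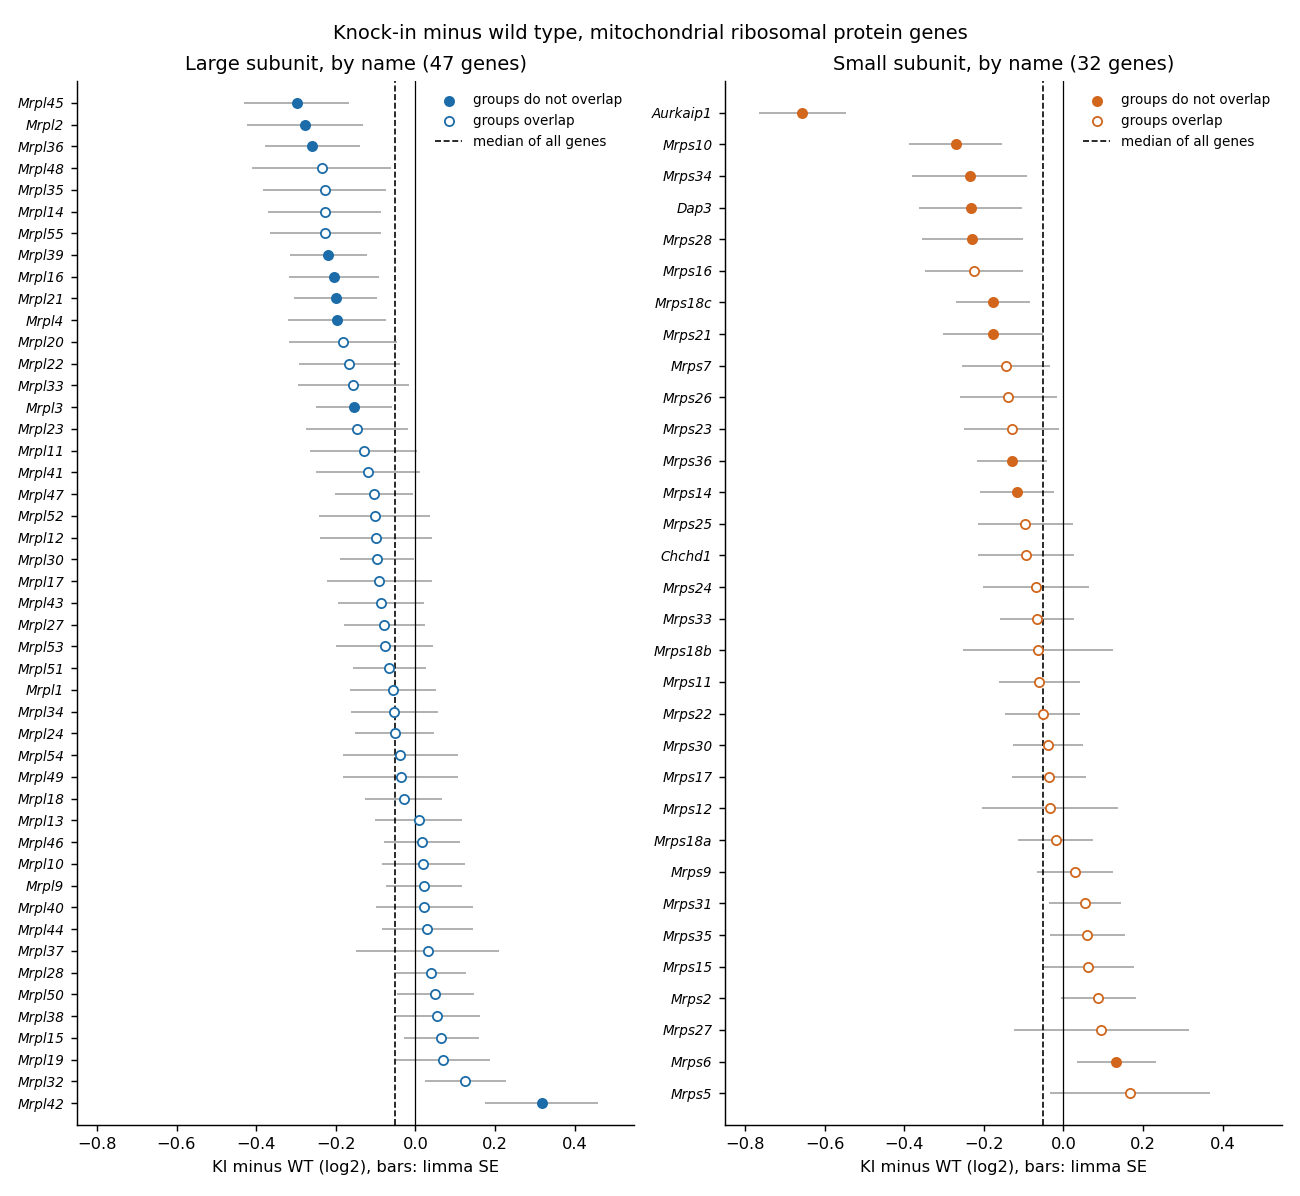
KI minus WT difference (log2, horizontal axis) of each of the 79 genes, large subunit left and small subunit right, ordered by difference, with limma's standard error as bars; filled points are genes whose 3 KI and 3 WT arrays do not overlap, and the dashed line is the median of all genes, -0.053. All but 2 of the points (77 of 79) lie within 0.3 of zero, and Aurkaip1, at -0.66, lies outside the range of the others.

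The members stood highest on 1 array. WT replicate 2 gave the highest of the 6 values for 51 of the 79 members, or 64.6%, and for 38.4% of all genes. Relative to each gene's mean over the 6 arrays, the members' median was -0.0084, -0.061 and -0.048 on KI replicates 1 to 3, -0.039 and 0.17 on WT replicates 1 and 2 of slide 2, and 0.037 on WT replicate 3 of slide 1. WT replicate 1 thus lay among the KI arrays, and it was below all 3 KI arrays for 27 members. Over all genes the same medians were -0.045, -0.016, -0.011, -0.011, 0.087 and 0.0098, so that WT replicate 2 was the highest there as well. Of the 17 members wholly lower in KI, 16 had their highest value on WT replicate 2. Without that array the members' median difference was -0.032, and without WT replicate 1 it was -0.14. The spread within groups differed in the same way: the median SD was 0.056 over KI arrays and 0.15 over WT arrays, and the WT SD was the larger for 68 members. The summed signal of nuclear-retained RNAs (4 of 6 measured) was also highest on WT replicate 2, at 34 against 19.7 to 22.9 elsewhere, as was that of the 10 neuronal markers, at 727 against 560 to 663. That of the 8 oligodendrocyte markers was lowest there, at 171 against 182 to 274. Their part in the result was not tested.

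**Figure D2:**
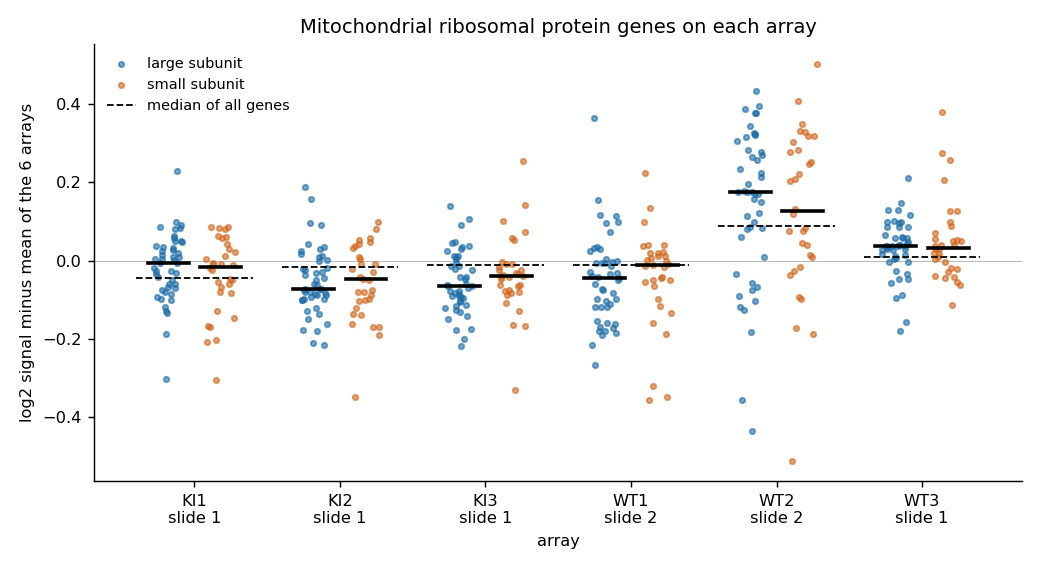
Log2 signal of each member on each array minus its mean over the 6 arrays (vertical axis), large-subunit genes in blue and small-subunit genes in orange; thick bars are the medians of each subunit and dashed lines the median of all genes. The points lie highest on WT replicate 2, with medians of 0.18 (large) and 0.13 (small), and those of WT replicate 1 lie among the KI arrays.

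Within slide 1, the only slide with both groups, the KI arrays can be set against WT replicate 3 alone. There all 3 KI arrays lay below the WT array for 47 of 79 members (59.5%), against 36.3% of all genes, and above it for 6 members (7.59%), against 26%. With slide as a fixed block, which makes the same comparison, the members' median difference was -0.075 and 60 members were lower. The share of all genes lower in that fit was not computed, so the 60 has no background beside it.

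Among small-subunit genes, Aurkaip1 gave the largest difference of all 79. It encodes mS38, a small-subunit protein first described as a partner of Aurora kinase A. Its probe lies on chromosome 4 at 155207111 to 155207170 of build mm9. It read 5.52, 5.48 and 5.49 on KI replicates 1 to 3 and 6.05, 6.33 and 6.08 on WT replicates 1 to 3 (log2 relative to the 75th percentile of the array). The gap between the groups exceeded the range within either, and WT replicate 3, on the slide of the KI arrays, lay with the other WT arrays. KI averaged 5.50 ± 0.022 and WT 6.15 ± 0.15 (SD, n = 3 each), so that KI read 0.635 of WT. KI minus WT was -0.66 on the log2 scale (SE 0.11; adjusted p = 0.390 by limma). The exact permutation test gave 0.1, which is the lowest p within reach of 3 arrays a group. With slide as a block it was -0.59 (SE 0.16, limma's adjusted p = 0.974). The other Aurkaip1 probe, at 155207081 to 155207140, read 5.21, 5.17 and 5.23 in KI and 5.81, 6.05 and 5.80 in WT, a difference of -0.68. The probes share 30 of their 60 bases and so are not independent measurements. In size Aurkaip1 was followed by a large-subunit gene, Mrpl42, at 0.32.

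**Figure D3:**
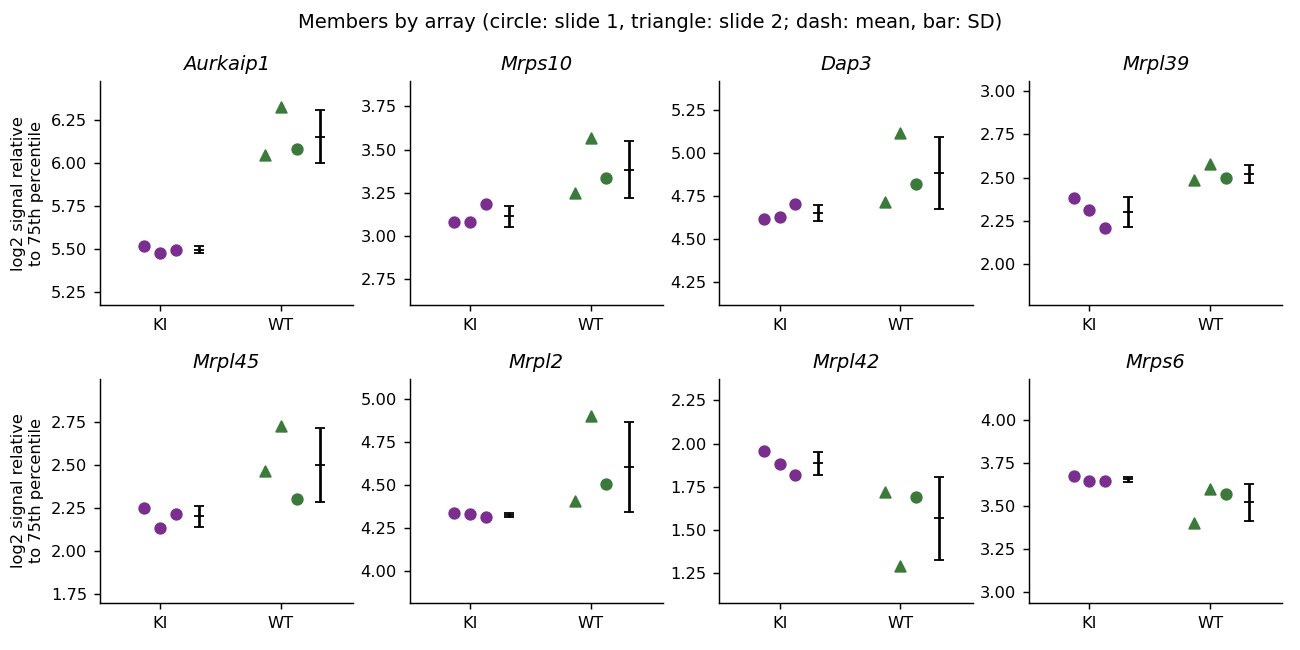
Log2 signal relative to the 75th percentile of the array (vertical axis, all panels of equal height) of 8 members on the 3 KI and 3 WT arrays; circles are arrays of slide 1, triangles of slide 2, and the dash and bar give mean and SD. In Aurkaip1 the KI arrays (5.48 to 5.52) lie well below all WT arrays (6.05 to 6.33), while the gaps between groups in the other panels are smaller.

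Dap3 and Chchd1, the other small-subunit genes that were chosen under names of their own, differed less. Dap3, whose product mS29 binds GTP and was first known as a death-associated protein, read 4.62, 4.63 and 4.70 in KI and 4.72, 5.12 and 4.82 in WT. The lowest WT array lay just above the highest KI array, KI minus WT was -0.23 (SE 0.13, adjusted p = 0.513 by limma), and Dap3's dimmer probe gave -0.039. Without WT replicate 2 the Dap3 difference was -0.12. Chchd1, which encodes mS37, read 4.89, 4.74 and 4.76 in KI and 4.73, 5.06 and 4.88 in WT, with overlap and a difference of -0.094 (SE 0.12).

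Further small-subunit genes were wholly lower in KI by small amounts. Mrps10, a relative of bacterial S10 in the head of the subunit, read 3.08, 3.08 and 3.18 in KI and 3.25, 3.57 and 3.34 in WT, a difference of -0.27 (SE 0.12, limma's adjusted p = 0.468) that was -0.18 without WT replicate 2. Mrps34, found in mitochondria only, read 4.52, 4.48 and 4.58 in KI and 4.59, 5.05 and 4.64 in WT, a difference of -0.24 (SE 0.14) that was -0.091 without WT replicate 2 and -0.11 with slide as a block. Mrps28 read 3.17, 3.01 and 3.01 in KI and 3.19, 3.50 and 3.18 in WT, with nearly touching groups and a difference of -0.23 (SE 0.13), which was -0.12 both without WT replicate 2 and with slide as a block. Mrps18c, the S18 relative of the small subunit, read 3.20, 3.08 and 3.11 in KI and 3.25, 3.35 and 3.31 in WT, a difference of -0.18 (SE 0.093) in which no single WT array stood out. Its relatives did not separate the groups: Mrps18b differed by -0.065 (SE 0.19) and Mrps18a by -0.019 (SE 0.094). Mrps18a and Mrps30 (-0.039, SE 0.088) are named for the small subunit although their proteins sit in the large one. Mrps36, now known as a subunit of the oxoglutarate dehydrogenase complex, was wholly lower at -0.13 (SE 0.088). In the other direction Mrps6, a relative of bacterial S6, read 3.67, 3.64 and 3.65 in KI and 3.40, 3.60 and 3.57 in WT, all KI arrays above all WT arrays, with a difference of 0.13 (SE 0.098) that was 0.072 without WT replicate 1 and 0.087 with slide as a block. Mrps5 gave the highest small-subunit difference, 0.17 (SE 0.20), with overlap, and with slide as a block it turned to -0.19 (SE 0.22).

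Among large-subunit genes the lower end held proteins of several sites of the particle. Mrpl39, a mitochondria-specific protein, read 2.38, 2.31 and 2.21 in KI and 2.48, 2.58 and 2.50 in WT, which gave -0.22 (SE 0.097, limma's adjusted p = 0.471). No single WT array stood out, and with slide as a block it differed by -0.19 (SE 0.15). Mrpl45, which lies at the exit of the peptide tunnel where the ribosome meets the inner membrane, read 2.25, 2.13 and 2.22 in KI and 2.47, 2.73 and 2.30 in WT, a difference of -0.30 (SE 0.13). That was the largest negative difference of the large subunit, and it was -0.10 with slide as a block and -0.18 without WT replicate 2. Mrpl36, a small relative of bacterial L36, read 3.05, 2.94 and 3.07 in KI and 3.15, 3.47 and 3.22 in WT, a difference of -0.26 (SE 0.12) that was -0.16 without WT replicate 2. Mrpl2, which neighbours the peptidyl transferase centre, read 4.34, 4.33 and 4.32 in KI and 4.41, 4.90 and 4.51 in WT, a difference of -0.28 (SE 0.15) with tight KI arrays and spread WT arrays, which was -0.13 without WT replicate 2 and -0.18 with slide as a block. Mrpl16 (-0.20, SE 0.11; -0.12 without WT replicate 2) and Mrpl21 (-0.20, SE 0.10) were also wholly lower, as were Mrpl3 (-0.15) and Mrpl4 (-0.20), relatives of bacterial L3 and L4; with slide as a block Mrpl4 was at -0.10. The opposite end was Mrpl42, a mitochondria-specific protein, which read 1.96, 1.88 and 1.82 in KI and 1.72, 1.29 and 1.69 in WT. Here too WT replicate 2 lay farthest from KI, KI minus WT was 0.32 (SE 0.14, adjusted p = 0.473 by limma), and it was 0.19 (SE 0.20) with slide as a block and 0.18 without WT replicate 2. Mrpl32 followed at 0.13 (SE 0.10), with overlap, and was 0.026 with slide as a block. Mrpl12, a protein of the ribosomal stalk that also binds the mitochondrial RNA polymerase, overlapped between groups at -0.099 (SE 0.14).

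The subunits did not separate from each other. The median difference was -0.086 for the 47 large-subunit genes, 33 of them lower and 8 wholly lower, and -0.068 for the 32 small-subunit genes, 24 of them lower and 9 wholly lower. Large minus small was thus -0.017 between KI and WT. The same quantity on single arrays was 0.0095, -0.024 and -0.023 in KI replicates 1 to 3 and -0.031, 0.050 and 0.0054 in WT replicates 1 to 3, with overlap and with a sign that varied within each group. Leaving out 1 array moved it between -0.023 and 0.018 and turned its sign in 5 of 6 cases. With Mrps18a and Mrps30 counted as large and Mrps36 left out, the medians were -0.078 for 49 large-subunit and -0.069 for 29 small-subunit genes. By origin, the median was -0.10 for 30 large-subunit proteins with bacterial relatives (23 lower) and -0.038 for 18 mitochondria-specific ones (11 lower). In the small subunit it was -0.065 for 17 conserved proteins (12 lower) and -0.095 for 12 mitochondria-specific ones (9 lower), so the order of the origins was opposite in the subunits.

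Several probes were kept for 26 of the members, and all of them had 1 sign in 16. In the other 10 they disagreed, and in each of these the brightest probe read lower in KI and a dimmer probe higher. Mrps14 was wholly lower on its brightest probe (-0.12) and higher on its dimmer ones (0.17 and 0.47). Mrps23 differed by -0.13 and 0.30, and Mrpl47 by -0.10, -0.094 and -0.10 on 3 probes and by 0.29 on the dimmest. The third probe of Mrps18b gave 0.29, and on it WT replicate 2, at -0.63, was the lowest of the 6 arrays, whereas on the brightest probe it was the highest at 3.94. Among the 16 members with 1 sign, the size could still differ between probes. Mrpl41 differed by -0.12 on its brightest probe and by -1.005 on a dimmer one (mean log2 signal -2.43), well above background on all 6 arrays. That dimmer probe exceeded in size the -0.66 of Aurkaip1.

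The transcripts that the mitochondrial ribosome translates were measured on the same arrays, under their names in the scanner files. Of the 13 protein-coding genes of the mitochondrial genome, 12 were lower in KI and 11 (84.6%) wholly lower, against 59.1% and 12.4% of all genes, with a median difference of -0.29. COX1, the core subunit of cytochrome oxidase, read 9.38, 9.26 and 9.29 in KI and 9.64, 9.79 and 9.40 in WT, a difference of -0.30 (SE 0.13). ND3, a subunit of complex I, read 7.60, 7.54 and 7.66 in KI and 7.99, 8.08 and 7.82 in WT, a difference of -0.37 (SE 0.11, limma's adjusted p = 0.412). ND5 read 6.59, 6.59 and 6.75 in KI and 7.03, 6.99 and 6.86 in WT, a difference of -0.32 (SE 0.10). In each of these WT replicate 3 was the lowest WT array and nearest to the KI arrays of its slide. With slide as a block the differences were smaller, at -0.084 for COX1, -0.22 for ND3 and -0.22 for ND5. By limma 0 of 13 passed after adjustment, and 6 were lower at an unadjusted p under 0.05. ND1 (0.084, SE 0.23) was the exception in sign, with WT replicate 2 at 6.29 and the other arrays between 6.78 and 7.10. With slide as a block ND1 turned to -0.13 and ND6, at -0.35 (SE 0.26) without the block, to 0.14. Apart from ND6, which averaged -1.60 in KI and -1.25 in WT, these are among the brightest probes. The result moved with the model and with scaling. The median was -0.13 with slide as a block, -0.11 with quantile normalization (4 genes wholly lower) and -0.033 in the authors' deposited value table (1 gene wholly lower). WT replicate 1 also ranked differently: relative to the mean of the 6 arrays, its list mean was 0.19 for the mitochondrial transcripts and -0.046 for the ribosomal protein genes.

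**Figure D4:**
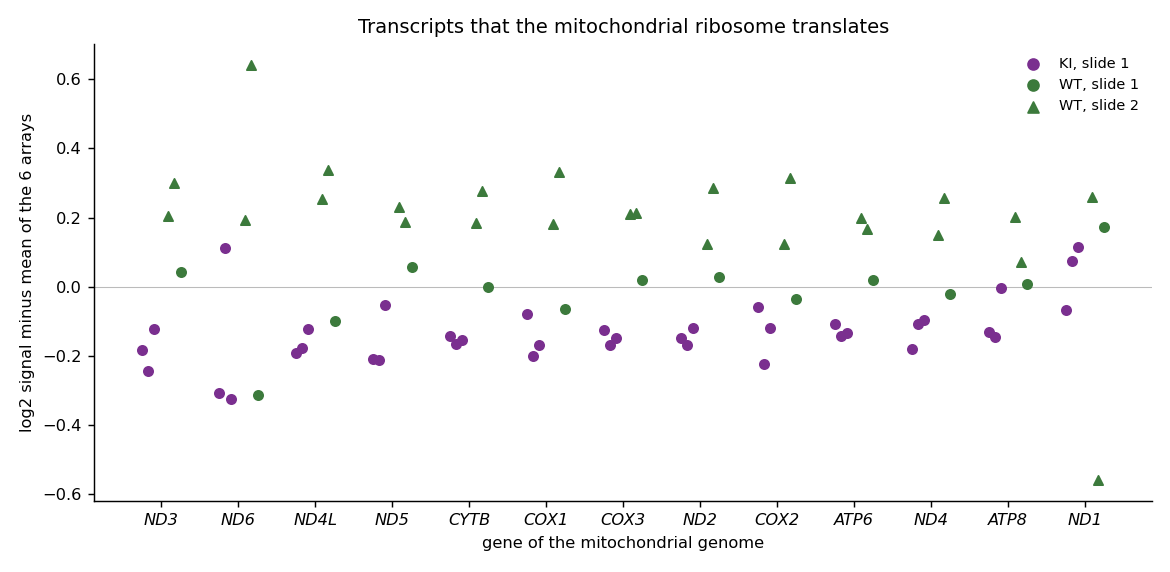
Log2 signal on each array minus the mean of the 6 arrays (vertical axis) for the 13 protein-coding genes of the mitochondrial genome, ordered by KI minus WT; purple is KI, green is WT, circles are slide 1 and triangles slide 2. Except in ND6 and ND1 every KI point lies below every WT point, and WT replicate 3 (green circles) lies between the KI arrays and the WT arrays of slide 2 in the other 11.

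Other genes of mitochondrial translation, taken from lists, showed no common direction, and by limma 0 passed after adjustment in any list. Over all genes 59.1% were lower, 12.4% wholly lower and 7.86% wholly higher, and at an unadjusted p under 0.05 6.4% were lower and 4.46% higher, which is the background to the counts that follow. Ribosomal proteins outside the naming rule were lower in 4 of 4, with Ict1, a peptidyl-tRNA hydrolase built into the large subunit, at -0.27 (SE 0.15) and Mrp63 at -0.22 (SE 0.15), both with overlap and both highest on WT replicate 2, without which they were at -0.12 and -0.085. Of 12 translation factors 9 were lower, 4 of them wholly, and the median was -0.026. Tsfm, the exchange factor of mitochondrial EF-Tu, was wholly higher at 0.45 (SE 0.14; 0.26 with slide as a block), and the initiation factor Mtif3 wholly lower at -0.35 (SE 0.14; -0.13 with the mean of its kept probes). At an unadjusted p under 0.05 there were 1 higher and 1 lower. Of 18 mitochondrial aminoacyl-tRNA synthetases 12 were lower, with a median of -0.094 and with 1 higher and 2 lower at an unadjusted p under 0.05. Rars2 averaged 1.40 in KI and 1.81 in WT, a difference of -0.40 (SE 0.10, limma's adjusted p = 0.398), and Pars2 differed by -0.52 (SE 0.15; -0.30 with slide as a block), both wholly lower. Of 25 genes for assembly and ribosomal RNA modification 14 were lower, with a median of -0.061 and with 1 higher and 1 lower at that level. The assembly GTPase Mtg1 was wholly lower at -0.30 (SE 0.10) and Ybey wholly higher at 0.23 (SE 0.095). Of 16 genes for transcription and RNA maturation 8 were lower, with a median of 0.013 and 0 at an unadjusted p under 0.05 in either direction. Tfam, which packages mitochondrial DNA and takes part in its transcription, was wholly higher at 0.30 (SE 0.13, and 0.20 without WT replicate 2). Fastkd5 was wholly higher at 0.23 (SE 0.11).

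Aurkaip1 has another member as a neighbour, Mrpl20, whose probe lies at -24.2 kb from its own along the chromosome. Mrpl20 read 5.51, 5.52 and 5.49 in KI and 5.49, 5.94 and 5.64 in WT, with overlap and a difference of -0.18 (SE 0.14), and Ccnl2, a cyclin gene between them, was wholly higher at 0.19 (SE 0.10). This region was examined after the Aurkaip1 values were seen. Of the 46 other genes with a probe within 500 kb, 36 (78.3%) were lower, against 59.1% of all genes; 6 (13%) were wholly lower and 3 (6.52%) wholly higher, against 12.4% and 7.86%. Tmem52, at -362.2 kb, was wholly higher at 1.39 (SE 0.35, adjusted p = 0.398 by limma). The probe of 2610204G22Rik, at -70.8 kb, was well above background on 3 of 3 WT arrays and on 0 KI arrays, so only a bound can be given: it read at least 2.54-fold lower in KI, with the KI arrays set no lower than the lowest signal well above background on each (adjusted p = 0.390 by limma on the measured values).

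**Figure D5:**
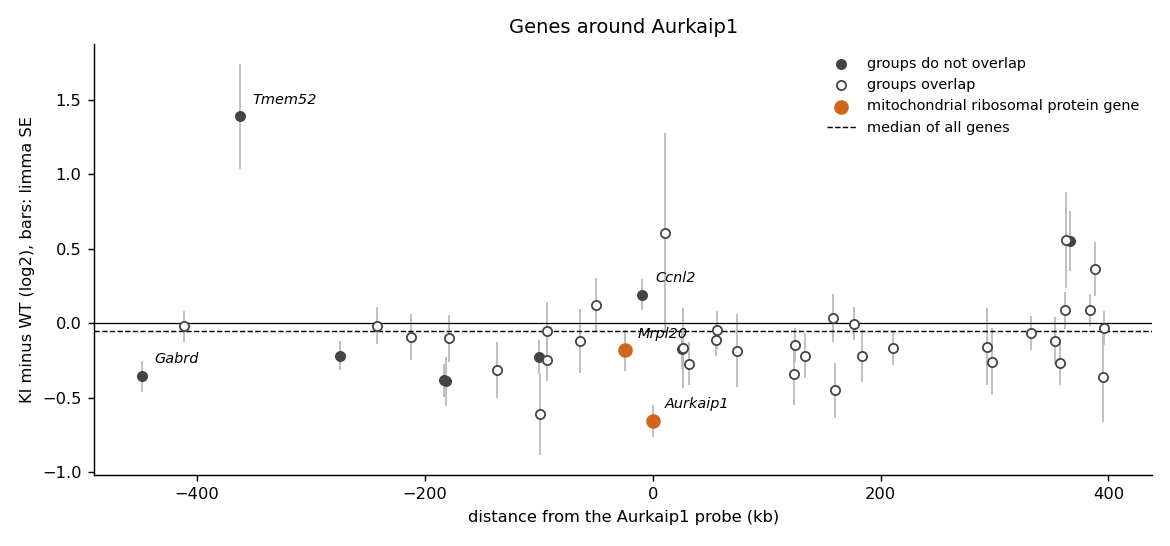
KI minus WT difference (log2, vertical axis, bars are limma's standard error) of Aurkaip1 and 45 genes with a probe within 500 kb of its own, by distance in kb, without 2610204G22Rik, for which only a bound was measured; filled dark points do not overlap between groups, open points do, orange points are the members Aurkaip1 and Mrpl20, and the dashed line is the median of all genes. Aurkaip1 lies at -0.66, and Tmem52, at 1.39, lies farthest from zero.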

How the data were processed

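The authors deposited 1 Agilent scanner file per sample with intensity values, read with Agilent Feature Extraction 10.7.3.1 per the file headers: raw mean and median brightness, local background and a processed intensity, background-subtracted and detrended within the array but not normalized between arrays. The deposited series table holds log2 values, whose columns had medians of 6.55 to 6.56 and ranked as the raw medians of their own arrays, while its normalization is stated nowhere in the labels or headers used. The label protocols name a low-input Cy3 kit.

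Processed intensities of non-control spots were taken as log2 and scaled by the 75th percentile of each array. Outlier spots were left out unless all spots of a probe were marked, spots of a probe were averaged, probes well above background on at least 3 arrays were kept, and the brightest stood for each gene name. KI and WT were fitted in R 4.3.3 by lmFit and eBayes of limma 3.58.1 (2-sided, no covariate), with p-values adjusted by Benjamini-Hochberg over all 20996 genes at a threshold of 0.05, and for single values by an exact 2-sided permutation test. The fit was tested on simulated data. Intensities carry no read depth, so the number of arrays limits the precision.

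Genes were named by a rule: Aurkaip1, Dap3, Chchd1, the Mrps18 genes, Mrps30, Mrpl12, up to 6 lower and 3 higher non-overlapping members of smallest p in each subunit, up to 3 members with disagreeing probes, and the 2 genes of smallest p in each other list. Mrps5, Mrps36, Mrpl3, Mrpl4, Mrpl20, Mrpl32, COX1, ND1, ND6, Fmr1, Hba-a1 and the genes near Aurkaip1 were added after their values were seen. The members and lists were chosen with earlier results of these data known. Alternatives covered background correction, scaling, filters, probe choice and names, the deposited table, moderation, slide, replicate number and each array left out.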

Additional observations from a re-analysis of the deposited data

How the results depend on the processing

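Of the 79 members, 0 passed limma's threshold under any of 19 alternatives, and the Aurkaip1 difference kept its sign in all of them, between -0.71 and -0.51, with limma's adjusted p between 0.219 and 0.974. The members' median lay between -0.14 and -0.029 and that of all genes between -0.13 and -0.011; the members' was the lower under 18 of 20 alternatives, but not with normexp (-0.065 against -0.080) or without the filter on dim probes (-0.078 against -0.13). Leaving out 1 array gave -0.14 (without WT replicate 1) to -0.032 (without WT replicate 2), with 54 to 63 members lower, medians of -0.14 to -0.021 for the large and -0.14 to -0.039 for the small subunit, large minus small of -0.023 to 0.018, and 18 to 39 members wholly lower (27 without KI replicate 1, 39 without WT replicate 1); the mitochondrial transcripts then lay between -0.36 and -0.22, with 11 or 12 wholly lower. Members wholly lower, a count added after the data were seen, were 7 with normexp background correction and 10 in the authors' value table. The share of all genes wholly lower was not computed under the alternatives, and groups separate more easily with 1 array left out. Counts of wholly lower genes under the alternatives thus cannot be read beside the 12.4% of all genes. For the mitochondrial transcripts the median was -0.11 and 4 were wholly lower with quantile normalization, -0.033 and 1 in the authors' value table, and -0.13 with slide as a block. Signs turned for Mrps18a (0.056 with normexp, 0.033 with quantile normalization, 0.081 in the authors' value table, 0.0039 without KI replicate 1; leaving out 1 array gave -0.057 to 0.014), Mrps18b (0.055 with the mean of kept probes, 0.020 without KI replicate 1, 0.022 without WT replicate 3; leaving out 1 array gave -0.26 to 0.043), Mrps14 (0.17) and Mrps23 (0.087) with the mean of kept probes, and, with slide as a block, Mrpl47 (0.0052), Mrps5 (-0.19), ND1 (-0.13) and ND6 (0.14). That list holds only genes named in the text. With slide as a block many further members turned, in both directions. Among them were Mrps27 (0.095 to -0.33), Mrpl37 (0.031 to -0.20), Mrpl35 (-0.23 to 0.065) and Mrpl52 (-0.10 to 0.11). The cause of these changes was not tested. Same-numbered KI and WT arrays correlated in their deviations at 0.398, -0.0239 and 0.252. Arrays of unlike number correlated between -0.395 and 0.154. These values do not settle whether the numbers pair the samples. With the replicate block the members' median was -0.078, 57 were lower and 0 passed. Over all genes the count past the threshold was 2, and 0 to 7 under the alternatives (7 with slide as a block). Members near the middle of the range had standard errors as large as their differences, so shifts of that size were not detectable with 3 arrays a group. Larger ones also went without a call: Aurkaip1 at -0.66 (SE 0.11) and Fmr1 at 0.82 (SE 0.099) did not pass limma's adjusted threshold. An absent call thus does not show an absent shift.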

Other observations

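Genes of mitochondrial protein quality control had a median difference of 0.048. Of 14 measured, 9 were higher in KI and 4 wholly higher, where 40.9% and 7.86% of all genes were. At an unadjusted p under 0.05 by limma 3 were higher and 0 lower, against 4.46% and 6.4% of all genes, and 0 passed after adjustment. Clpx, the unfoldase of a matrix protease, averaged 1.90 in KI and 1.53 in WT, a difference of 0.37 (SE 0.11), and the inner-membrane protease Yme1l1 differed by 0.29 (SE 0.11; 0.19 with normexp background correction). Both had their lowest value on WT replicate 2. Of 10 nuclear regulators of mitochondrial genes 5 were higher, with a median of -0.0016. Myc, a growth-promoting transcription factor, was wholly higher at 0.45 (SE 0.13) but at 0.19 with normexp, and Sp1 differed by 0.27 (SE 0.14) with overlap but by 0.062 with slide as a block and 0.16 without WT replicate 1.

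In a band of brightness chosen after the data were seen, between the quartiles of the members' mean signal (2.15 to 4.28 in log2), 39 members had a median difference of -0.078 with 79.5% lower and 25.6% wholly lower. The 3718 other genes of that band had a median of -0.055, with 62.9% lower and 13.4% wholly lower. Outside the band the members' sign went with brightness: all brighter members read lower in KI, and most dimmer ones read higher. The shares of all genes outside the band were not computed, and the part of brightness in the members' differences was not tested.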
